A study of Drosophila melanogaster with 6 samples.

Results

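The under-replicated domains of chromosome arm 2L were described here in windows of 10 kb, at the places where salivary gland DNA of Drosophila melanogaster was below full copy number in the control genotype. The domains had been called from read depth in that genotype, HWT, and were longer than a window. The 352 different windows of 2L were all those that the deposited lists of under-replicated domains give for this chromosome, of 2189 different windows in the whole series. Of these, 89 lay in pericentric heterochromatin and 263 lay along the arm, and the classes were kept apart as the lists have them. The lists name 354 windows on 2L, of which 2 were repeats and were counted once. Salivary glands came from female wandering larvae of the third instar, and 2 replicates of 25 glands per genotype were sequenced, each from 20 ng of genomic DNA. H3K9R larvae carried a transgenic array of replication-dependent histone genes in which lysine 9 of histone H3 was replaced by arginine. H4K16R larvae carried an array in which lysine 16 of histone H4 was replaced by arginine. HWT (Histone Wild Type) larvae, the control, carried an unmutated array. All larvae of the 3 genotypes also lacked the endogenous histone gene cluster of 2L on both chromosomes (the deletion ΔHisC), with twi-GAL4 on one copy and UAS-2xEYFP on the other. H3K9R larvae develop more slowly than HWT larvae, and glands were taken at the same stage rather than the same age. The replication-independent genes for histone H3.3 and for histone H4 (His4r) were unmutated, so lysine at these positions was not absent from the nuclei.

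Salivary gland cells copy their DNA again and again without dividing, which yields polytene chromosomes. Late-replicating sequence is skipped in many of these endocycles and ends at a lower copy number than the rest of the chromosome. In pericentric heterochromatin, methylated H3K9 is bound by HP1a, and the proteins SuUR and Rif1 are needed for under-replication. Acetylated H4K16 marks euchromatin and, on the male X chromosome, dosage compensation.

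In the reference genome, the 2 residues that were replaced are encoded by repeated genes that themselves lie inside listed arm windows of 2L. The first 60 coding bases of His3 and of His4 are shown because they hold the unmutated codons of these residues (capitals, codon of lysine 9 in His3 and of lysine 16 in His4, counted without the first methionine). The larvae lacked these copies, and the sequence of the transgenic array is not shown. They were read on the dm6 (RefSeq Release 6) sequence from His3:CG31613 (chr2L:21425250-21425309, plus strand) and His4:CG31611 (chr2L:21424890-21424949, minus strand). The His3 sequence was identical in 23 of 23 annotated copies of the cluster, and the His4 sequence in 22 of 22.
His3: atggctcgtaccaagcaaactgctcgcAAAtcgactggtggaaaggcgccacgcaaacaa
His4: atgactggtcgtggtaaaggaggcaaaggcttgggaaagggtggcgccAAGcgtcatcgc

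The 150 bases at the centre of 3 windows are shown because these windows had the highest pericentric, the highest arm and the lowest arm ratio of H3K9R to HWT. Capitals mark positions at which a sequence of 100 bases begins that occurs once in the dm6 assembly, and lower case marks positions where it also occurs elsewhere. All 3 are from the plus strand, at chr2L:22394926-22395075, chr2L:20184926-20185075 and chr2L:15404926-15405075.
Pericentric highest: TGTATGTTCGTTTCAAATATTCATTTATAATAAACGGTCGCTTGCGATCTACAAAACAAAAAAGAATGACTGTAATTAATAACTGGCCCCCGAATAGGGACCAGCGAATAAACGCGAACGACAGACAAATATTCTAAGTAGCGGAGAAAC
Arm highest: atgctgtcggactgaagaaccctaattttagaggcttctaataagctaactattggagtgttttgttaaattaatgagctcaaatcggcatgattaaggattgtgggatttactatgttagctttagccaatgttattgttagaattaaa
Arm lowest: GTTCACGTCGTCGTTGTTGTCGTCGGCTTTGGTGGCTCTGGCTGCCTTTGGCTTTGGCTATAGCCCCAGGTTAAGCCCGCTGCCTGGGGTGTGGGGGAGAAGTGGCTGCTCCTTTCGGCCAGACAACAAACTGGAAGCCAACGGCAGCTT
All 150 positions of the first and of the third sequence were once-only, and 0 of 150 positions of the second.

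The deposited value of a window is its RPM, the reads in the window scaled to the reads of the library, averaged over the 2 replicates of a genotype. Because each average is a sum of 2 whole read counts divided by 2 library totals, the reads of both libraries were derived from it, and 100% of the 2189 windows had a single whole-number solution. The library totals were 22341893 and 18681787 reads in H3K9R, 26685461 and 23148290 in H4K16R and 25799522 and 25408559 in HWT. The libraries of a genotype are called deeper and shallower here, because the averages do not show which replicate number each was. On 2L the 2 libraries of a genotype differed by a median of 0.088 on the log2 scale in H3K9R, 0.074 in H4K16R and 0.072 in HWT. The median window held 613 to 886.5 reads per library and the lowest 40. The windows had been chosen for low copy number in HWT, so chance lows of HWT entered the choice. H4K16R stood in the same relation to that choice as H3K9R.

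Pericentric windows of 2L took a larger share of the reads in H3K9R than in HWT, and H4K16R differed little from HWT. Over the 89 windows, H3K9R libraries had medians of 64.1 and 65.5 RPM, and HWT libraries of 37.9 and 38.0 RPM. The median window ratio of H3K9R to HWT was 0.72 on the log2 scale (1.64-fold), with 0.68 to 0.73 over the 4 ways to pair libraries of both genotypes. The quartiles were 0.11 and 1.24, the lowest window was at -0.31 and the highest at 3.36, and 73 of 89 were above 0. The libraries of the 2 genotypes did not overlap, but with 2 against 2 libraries the two-sided exact permutation p was 0.333, the smallest this design allows. By limma across all 2177 windows with a read, 53 of the 89 windows (59.6%) rose at an adjusted p under 0.001, against 79.2% of pericentric windows of all chromosomes. None fell (0 of 89, background 0%), and 1 window was lower at an unadjusted p under 0.05, for which no background was counted.

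The ratio was uneven along the 6 pericentric stretches of adjoining windows. The largest was in the stretch at chr2L:22230001-22530000, 30 windows with 4 protein-coding genes and 123 annotated transposon insertions. Its library medians were 76.8 and 74.0 RPM in H3K9R, 22.5 and 22.8 RPM in H4K16R and 24.1 and 23.6 RPM in HWT. Its median log2 ratio of H3K9R to HWT was 1.44 (2.72-fold; 1.38 to 1.4999 over the pairings), and 24 of 30 windows rose.

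In H3K9R no window of this stretch was below 47.5 RPM, while H4K16R reached 8.06 RPM and HWT 7.62 RPM. At its HWT minimum, the window chr2L:22360001-22370000 over the 3' part of Marf1, the libraries gave 55.9 and 56.0 RPM in H3K9R, 8.69 and 7.43 RPM in H4K16R and 7.48 and 7.75 RPM in HWT. Marf1 encodes an RNA-binding protein that acts in the female germ line. Over its 7 windows the mean level was 68.4 RPM in H3K9R, against 19.02 RPM in HWT, and all 7 windows rose. At the edge of the stretch toward the arm lay Tif-IA, an initiation factor of RNA polymerase I, with 73.1 RPM in H3K9R and 74.5 RPM in HWT. Nubpl, a gene for a mitochondrial iron-sulphur cluster factor, had 78.5 RPM in H3K9R and 81.3 RPM in HWT. For both genes, 0 of 2 windows passed the test, so the calls of this stretch lay away from its edge toward the arm.

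The highest ratio on 2L was at chr2L:22390001-22400000, the intergenic window whose centre is printed above. Its levels were 89.1 and 91.6 RPM in H3K9R, 9.89 and 9.07 RPM in H4K16R and 9.26 and 8.38 RPM in HWT. On the log2(RPM + 1) scale that limma used, which shrinks ratios of low windows, H3K9R was higher than HWT by 3.22 ± 0.07 (SE, adjusted p = 3.49e-08). Annotated transposons covered 81.0% of this window, and 87.6% of its 100-base sequences occurred once. In the neighbouring window chr2L:22380001-22390000, 99.9% was transposon and 17.7% once-only, and the levels were 144.5 and 134.7 RPM in H3K9R, 16.7 and 17.3 RPM in H4K16R and 17.6 and 16.1 RPM in HWT. High ratios thus occurred in both a mostly once-only and a mostly repeated window of this stretch. Where the reads placed in the repeated window came from was not tested.

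The next stretch, chr2L:22610001-22910000, was split into a part that rose and a part that did not. The split was noticed in the values. The 17 windows to chr2L:22780000 had a median of 80.02 RPM in H3K9R, 44.7 RPM in H4K16R and 49.2 RPM in HWT, and 13 of them rose. They hold CG40006, a gene of a CD36-like scavenger receptor family that spans 14 of these windows, with a mean of 77.1 RPM in H3K9R and 47.1 RPM in HWT. In each of the 13 windows from chr2L:22780001 on, at least 70% of the 100-base sequences also occurred on chromosome 2R. Their median was 40.5 RPM in H3K9R, 43.3 RPM in H4K16R and 44.0 RPM in HWT, a log2 ratio of H3K9R to HWT of -0.04, and 0 of 13 passed the test. A median of 0.68% of their 100-base sequences occurred once, and where the reads placed in them came from was not tested.

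**Figure D1:**
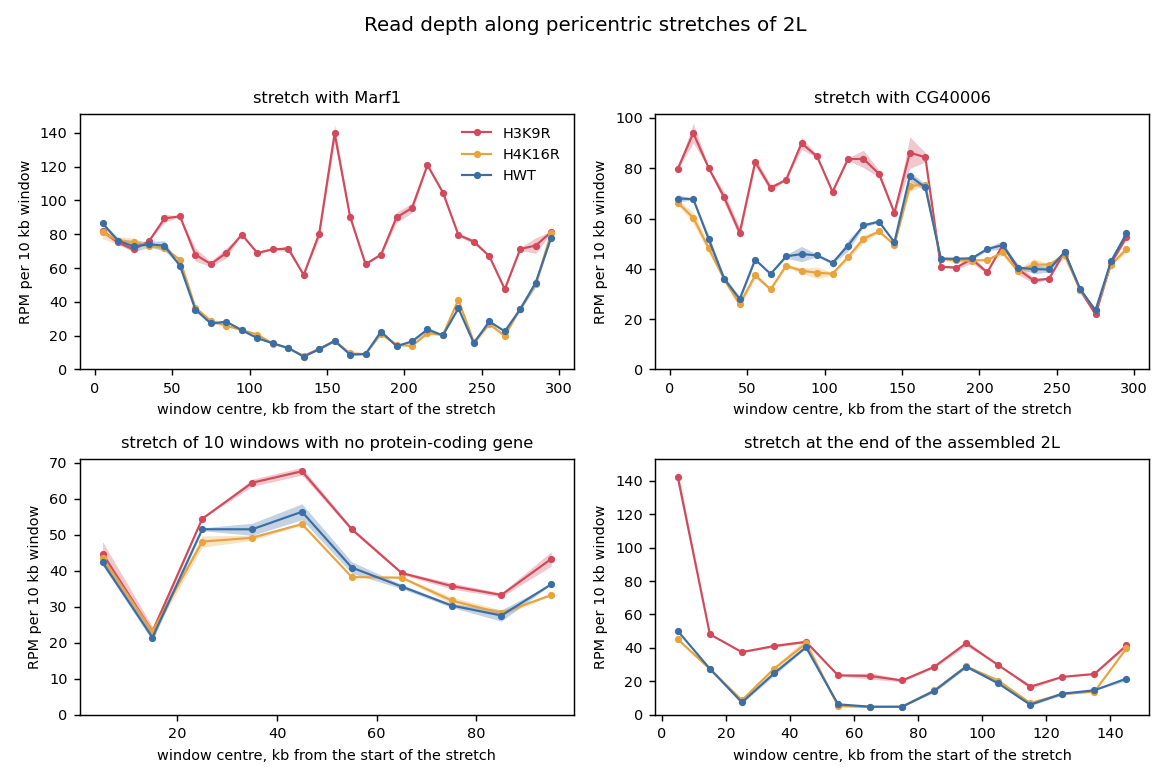
RPM per 10 kb window (y axis) against distance from the start of the stretch in kb (x axis) in 4 pericentric stretches of 2L. Lines are the deposited averages of H3K9R, H4K16R and HWT, and shading spans the 2 derived libraries. In the Marf1 stretch H3K9R stays between 47.5 and 139.6 RPM where HWT falls to 7.62 RPM, and in the CG40006 stretch the lines meet in the last 13 windows.

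The stretch at the end of the assembled chromosome, chr2L:23370001-23513712, had 15 windows and no protein-coding gene. Its library medians were 29.5 and 29.8 RPM in H3K9R, 13.8 and 15.2 RPM in H4K16R and 14.4 and 15.2 RPM in HWT, and 14 of 15 windows rose. The deepest HWT level among pericentric windows was at chr2L:23440001-23450000, with 21.3 and 19.6 RPM in H3K9R, 4.95 and 4.71 RPM in H4K16R and 4.81 and 4.60 RPM in HWT. H3K9R was there higher than HWT but stayed well below the level of the Marf1 stretch. The highest H3K9R level on 2L was in the first window of this stretch, with 146.2 and 138.2 RPM in H3K9R, 45.4 and 44.8 RPM in H4K16R and 50.2 and 49.9 RPM in HWT.

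The other pericentric stretches hold no protein-coding gene, and their ratios varied. In the 10 windows of chr2L:23190001-23290000, the median was 44.0 RPM in H3K9R and 38.6 RPM in HWT (log2 ratio 0.25), and 0 of 10 passed the test. In the 2 windows of chr2L:23140001-23160000 the ratio was 0.07 and 0 of 2 passed. In the 2 windows of chr2L:23340001-23360000 it was 0.77 and both rose.

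Within the pericentric class, the ratio was higher where HWT was lower. The median log2 ratio of H3K9R to HWT was 2.32 in the 8 windows under 10 RPM in HWT, 2.24 in the 12 windows from 10 to 20 RPM, 0.93 in 27 windows from 20 to 40 RPM, 0.30 in 31 windows from 40 to 60 RPM and 0.16 in 11 windows of 60 RPM or more. HWT enters both quantities, so this order is a description. For H4K16R over HWT, where the same holds, the medians of these bins lay between -0.09 and 0.06. By sequence, the 19 windows with under 10% once-only sequence had a median of -0.01 (11 of them are among the 13 windows that share their sequence with 2R), and the 21 windows with at least 80% had a median of 0.90.

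**Figure D2:**
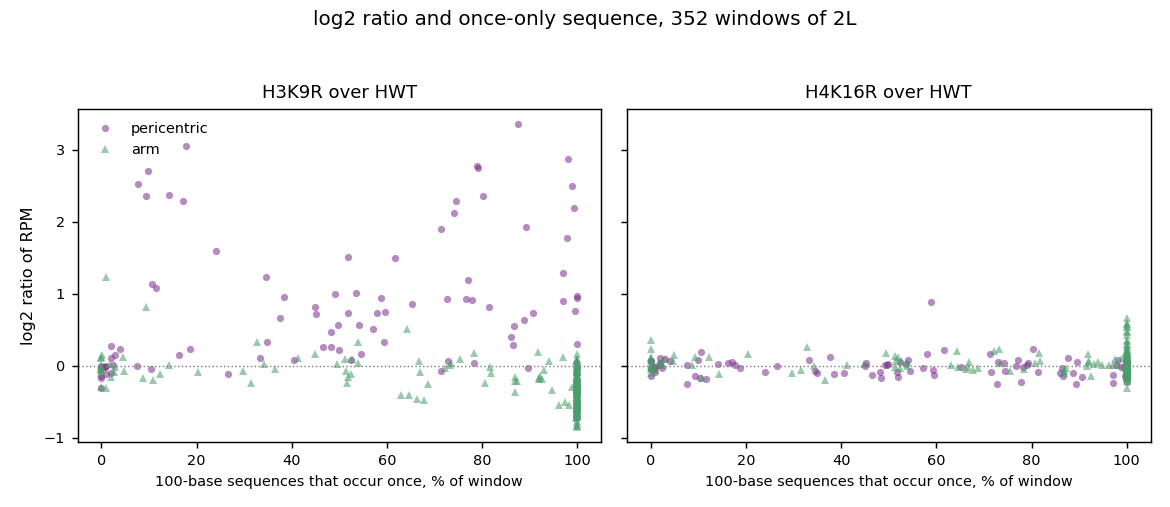
log2 ratio of averaged RPM (y axis) against the percentage of 100-base sequences of a window that occur once in dm6 (x axis), for H3K9R over HWT (left) and H4K16R over HWT (right); each point is 1 of 89 pericentric or 263 arm windows. Windows at 80% or more have a median of 0.90 in the pericentric class and -0.34 in the arm class for H3K9R.

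Along the arm of 2L, H3K9R windows lay slightly below HWT. The library medians over the 263 windows were 27.4 and 26.0 RPM in H3K9R, against 30.9 and 30.8 RPM in HWT. The median log2 ratio was -0.29 (0.819-fold), with -0.29 to -0.26 over the 4 pairings. Windows ranged between -0.85 and 1.23, and 37 of 263 were above 0. The exact permutation p of the library medians was again 0.333, the smallest possible. By limma, 69 of 263 windows (26.2%) fell and 3 rose at an adjusted p under 0.001, against 19.3% and 2.72% of the arm windows of all chromosomes. Without any 1 library of the 2 genotypes the median log2 ratio stayed between -0.29 and -0.27, but fewer windows fell. The cause of the smaller count was not tested. In the 210 arm windows with at least 80% once-only sequence the median log2 ratio of H3K9R to HWT was -0.34, and 67 fell. In the 53 arm windows below 80% it was -0.03, with 2 that fell and 3 that rose.

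RPM is a share of all reads of a library, so a gain in some regions lowers the RPM of all others. H3K9R was also scaled so that the 81 listed arm windows of all chromosomes with the highest HWT levels had a median ratio of 1. These windows lie in under-replicated domains themselves and were chosen on HWT, so they are not a reference of full copy number. After the scaling, each H3K9R log2 ratio moved up by 0.14, the arm median became -0.15 and 26 windows fell. How much of the arm difference comes from this scale was not tested. The scaling moved the median log2 ratio of H3K9R over the pericentric windows of 2L up to 0.86, and moved H4K16R log2 ratios by 0.0026.

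The windows that fell were gathered in a few of the 13 arm stretches. The stretch chr2L:15290001-15720000, with 43 windows and 32 protein-coding genes, held 29 of the 69. Its library medians were 38.9 and 37.8 RPM in H3K9R, 56.5 and 56.6 RPM in H4K16R and 55.7 and 55.7 RPM in HWT, a median log2 ratio of H3K9R to HWT of -0.52, or -0.38 after the scaling. It contains the genes of the Snail family of zinc finger transcription factors. At wor, the level was 32.9 and 32.9 RPM in H3K9R, 52.8 and 55.3 RPM in H4K16R and 54.1 and 52.8 RPM in HWT (limma log2 difference from HWT -0.68 ± 0.06, SE, adjusted p = 1.53e-05). At esg, the level was 41.4 and 37.8 RPM in H3K9R, 60.4 and 56.6 RPM in H4K16R and 53.3 and 60.6 RPM in HWT, and its window fell (adjusted p = 0.000688). At sna, the level was 32.1 and 41.1 RPM in H3K9R, 54.2 and 58.8 RPM in H4K16R and 55.7 and 55.7 RPM in HWT, and its window missed the threshold (adjusted p = 0.0013). All 3 genes were lower in both H3K9R libraries than in every HWT library.

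The 3 genes with the most sequence in this stretch differed in their calls. kek3, a leucine-rich repeat and immunoglobulin transmembrane protein gene, averaged 38.7 RPM over 4 windows in H3K9R and 58.0 RPM in HWT, with 3 windows that fell. lace, a serine palmitoyltransferase subunit gene, averaged 49.7 RPM in H3K9R and 63.2 RPM in HWT, with 1 of 2 windows that fell. stol, a calcium channel alpha2delta subunit gene, averaged 40.1 RPM over 8 windows in H3K9R and 44.2 RPM in HWT, with 0 windows that fell. The 6 stol windows from chr2L:15660001 on had at most 0.97% once-only sequence, and the window before them had 31.5%.

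The lowest arm ratio was at chr2L:15400001-15410000, an intergenic window between esg and wor whose centre is printed above. Its levels were 27.6 and 28.7 RPM in H3K9R, 50.0 and 51.3 RPM in H4K16R and 52.3 and 48.999 RPM in HWT (limma log2 difference -0.82 ± 0.06, SE, adjusted p = 7.11e-06). Its sequence was 100% once-only and 0% transposon. HWT was here far above its troughs in other stretches, so the lowest ratio was not at the lowest copy number.

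The stretch of the neuronal cadherins, chr2L:17530001-17950000, was a broad trough that was deeper in H3K9R. Over its 42 windows, the library medians were 9.67 and 9.98 RPM in H3K9R, 16.02 and 14.2 RPM in H4K16R and 15.7 and 14.2 RPM in HWT, and 17 windows fell (median log2 ratio of H3K9R to HWT -0.51, or -0.37 after the scaling). CadN, a homophilic adhesion molecule of axons, averaged 10.9 RPM over 14 windows in H3K9R and 13.7 RPM in HWT, with 5 windows that fell. Its neighbour CadN2 averaged 9.31 RPM over 10 windows in H3K9R and 13.6 RPM in HWT, with 4 that fell. Sytalpha, a synaptotagmin gene, averaged 15.04 RPM in H3K9R and 21.6 RPM in HWT, and both its windows fell. The stretch of side-II, a Sidestep family receptor gene, at chr2L:14720001-14950000 held 10 more windows that fell, among 23 (library medians 17.2 and 17.1 RPM in H3K9R, 23.7 and 23.98 RPM in H4K16R, 23.1 and 23.8 RPM in HWT).

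Single windows stood above the floor of the cadherin trough in all 3 genotypes. Within CadN, 2 intronic windows at chr2L:17680001-17700000 had 23.8 and 25.8 RPM in H3K9R, 21.1 and 22.2 RPM in H4K16R and 22.4 and 23.0 RPM in HWT (averages), while the median window of the stretch had 15.1 RPM in HWT. Transposons covered 24.6% and 22.5% of them. A window in CadN2, at chr2L:17820001-17830000, had 27.4 RPM in H3K9R, 33.8 RPM in H4K16R and 32.5 RPM in HWT, with 51.2% transposon and 51.6% once-only sequence. Each of these 3 windows shared part of its sequence with other places of the genome.

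The trough of the beat-III genes, chr2L:16930001-17350000, held the lowest HWT level of the arm. The beat genes encode immunoglobulin proteins that guide motor axons. The window with the lowest level, chr2L:17090001-17100000, had 3.98 and 3.16 RPM in H3K9R, 4.27 and 5.83 RPM in H4K16R and 3.29 and 3.46 RPM in HWT. H3K9R and HWT overlapped there, and H4K16R lay above HWT without passing the test (limma adjusted p = 0.0582). Over the 42 windows, 4 fell in H3K9R, and the median log2 ratio to HWT was -0.24. In beat-IIIc, 3 of 9 windows fell (12.1 RPM in H3K9R, 15.97 RPM in HWT), while in beat-IIIa 0 of 5 did (13.7 RPM in H3K9R, 13.9 RPM in HWT). In the stretch of beat-Ic, beat-Ia and the calcium channel gene Ca-alpha1D, chr2L:15960001-16220000, 4 of 26 windows fell (13.1 RPM in H3K9R and 15.9 RPM in HWT, medians).

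The 3 arm windows of 2L that rose in H3K9R formed a stretch of their own. At chr2L:20170001-20200000, the annotation has 0 protein-coding genes and 14 transposon insertions, which cover 69.8% of it, among them 1360 and invader3 elements. The middle window had 29.8 and 25.9 RPM in H3K9R, 12.4 and 11.1 RPM in H4K16R and 12.98 and 10.8 RPM in HWT (limma log2 difference 1.16 ± 0.11, SE, adjusted p = 1.94e-05), with 1.00% once-only sequence. The window to its right had 36.0 and 35.4 RPM in H3K9R, 21.5 and 22.4 RPM in H4K16R and 20.9 and 19.7 RPM in HWT, with 9.38% once-only sequence. The window to its left had 45.5 and 43.8 RPM in H3K9R, 35.0 and 37.4 RPM in H4K16R and 30.9 and 31.6 RPM in HWT, with 64.3% once-only sequence, and it missed the threshold without any one library of either genotype (adjusted p 0.0012 to 0.00224). Both H3K9R libraries were above all others in each of the 3 windows, and whether reads placed here came from copies of these elements elsewhere was not tested.

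**Figure D3:**
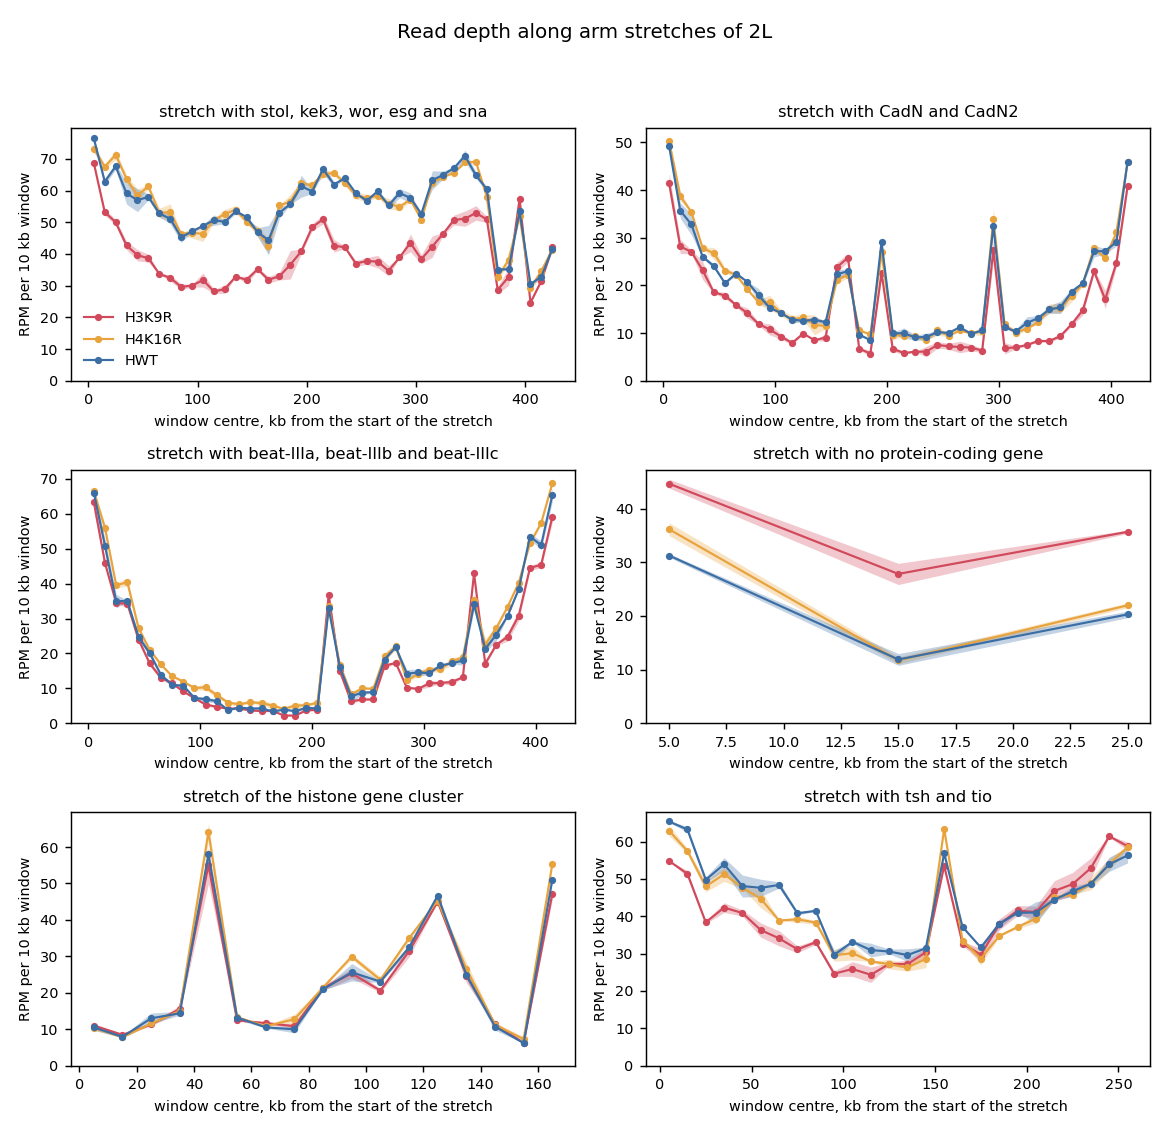
RPM per 10 kb window (y axis) against distance from the start of the stretch in kb (x axis) in 6 arm stretches of 2L. Lines are the deposited averages of H3K9R, H4K16R and HWT, and shading spans the 2 derived libraries. H3K9R runs below HWT over most of the stretches of kek3 and CadN, above it in the stretch without protein-coding genes and along it over the histone genes.

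The histone gene cluster, 111 annotated genes at chr2L:21416953-21541681, overlapped 14 arm windows. It holds 23 His1, 20 His2A, 23 His2B, 23 His3 and 22 His4 genes. The larvae lacked this cluster and carried histone genes on a transgene, and which DNA gave the reads placed over it was not tested. The median level of the 14 windows was 18.1 RPM in H3K9R, 18.2 RPM in H4K16R and 17.7 RPM in HWT. Their log2 ratios to HWT lay between -0.20 and 0.15 in H3K9R and between -0.17 and 0.35 in H4K16R, and none passed the test (lowest adjusted p 0.0621 for H3K9R and 0.122 for H4K16R). The window chr2L:21440001-21450000 stood out, with 60.1 and 49.9 RPM in H3K9R, 66.5 and 61.9 RPM in H4K16R and 57.8 and 58.1 RPM in HWT, and 89.05% of it was transposon. Without these windows the arm median of H3K9R over HWT was -0.30, and the same 69 windows fell.

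Near the border of the pericentric class, the stretch chr2L:21830001-22090000 holds the zinc finger genes tsh and tio, which pattern the trunk. Its median was 38.1 RPM in H3K9R, 39.3 RPM in H4K16R and 43.0 RPM in HWT, and 3 of 26 windows fell. H3K9R lay below HWT at the start of the stretch and along it at the end. At tsh the level was 54.8 and 54.9 RPM in H3K9R and 65.7 and 65.1 RPM in HWT. At tio it was 38.3 and 41.1 RPM in H3K9R and 38.9 and 40.03 RPM in HWT, where the groups overlapped.

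By gene list, 11 of the 24 neuronal cell surface genes annotated on 2L overlapped a listed window, all of them on the arm. For none of the lists was this overlap compared with that of all genes of 2L. Of these 11, 7 had a window that fell in H3K9R (beat-Ia, beat-Ib, beat-Ic, beat-IIIc, kek3, CadN and CadN2) and 0 a window that rose, with a median log2 ratio over the genes of -0.35 beside -0.29 over the 263 arm windows. Of all 142 protein-coding genes over arm windows of 2L other than the histone genes, 45 (31.7%) had a window that fell. The listed genes are long, with a median of 5 windows beside 1 over the 142 genes, and a gene over more windows has more chances of a call. Of the 10 genes that spanned at least 5 windows, 5 had a window that fell, and 7 of these 10, among them the 5 with a call, belong to the neuronal list. Of the 32 genes of the developmental list on 2L, 6 overlapped listed windows, of which 3 also belong to the neuronal list (kek1, kek2 and beat-Ia, which are no transcription factors). Among the 6, 3 had a window that fell (esg, wor and beat-Ia), beside the same 31.7% of all genes. Of the 12 annotated genes of the list for pericentric heterochromatin and its border, 2 (tsh and tio) overlapped listed windows, and 0 had a called window. In H4K16R, 0 genes of these lists had a called window. For kek1, with 46.6 RPM in H3K9R and 51.5 RPM in HWT, and kek2, with 33.5 RPM in H3K9R and 40.6 RPM in HWT, no window passed the test.

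**Figure D4:**
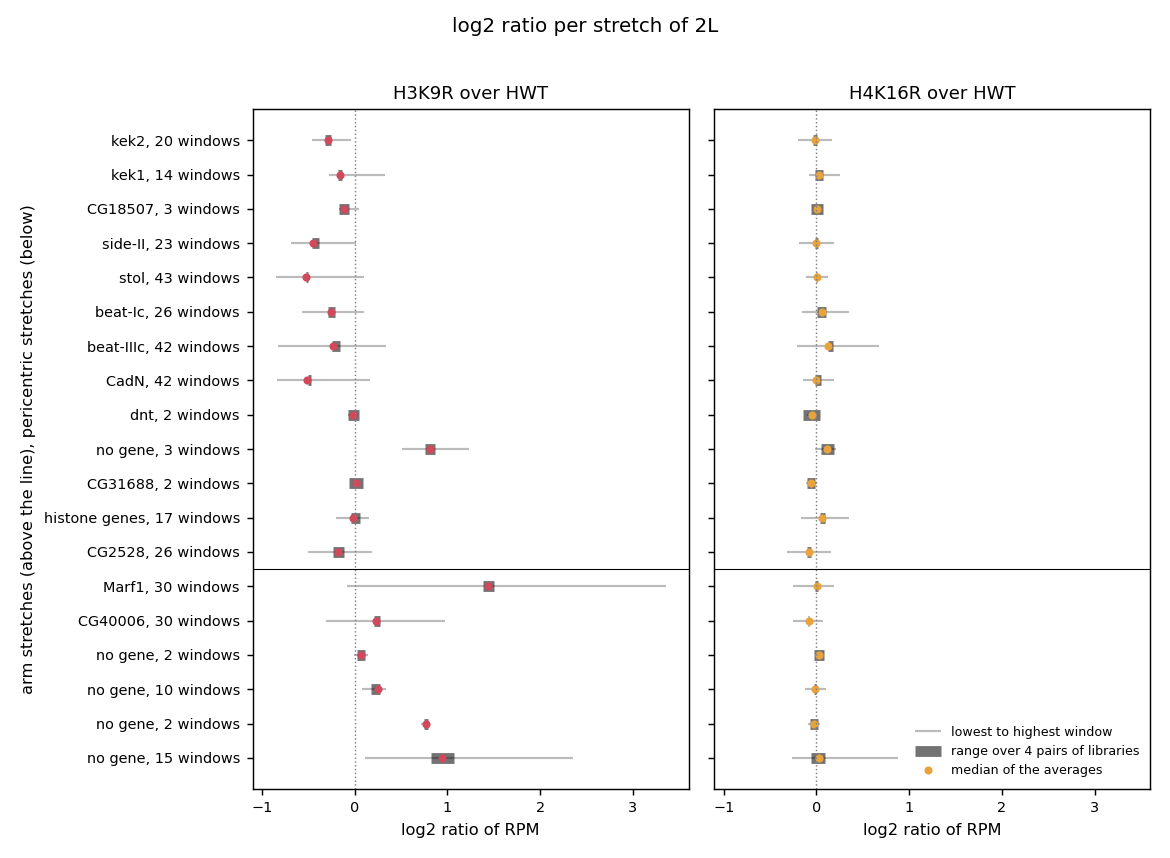
Median log2 ratio of RPM per stretch (x axis) for H3K9R over HWT (left) and H4K16R over HWT (right), with the 13 arm stretches above the line and the 6 pericentric stretches below it, each named by its leading gene (y axis). Points are medians of the averages, thick bars the range over the 4 pairings of libraries and thin lines the lowest to the highest window. H3K9R is at 1.44 in the Marf1 stretch and at -0.52 in the stretch of stol and kek3, while H4K16R stays between -0.08 and 0.13.

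H4K16R glands had levels close to HWT over most of 2L. Pericentric windows had library medians of 38.3 and 37.8 RPM (H4K16R) and of 37.9 and 38.0 RPM (HWT), which overlapped (exact permutation p = 1). Their median log2 ratio was -0.02 (-0.04 to -0.02 over the pairings). Arm windows had library medians of 31.1 and 30.6 RPM (H4K16R) and of 30.9 and 30.8 RPM (HWT), which also overlapped (exact permutation p = 1). Their median log2 ratio was 0.01 (0.0047 to 0.027 over the pairings). By limma, 1 pericentric window rose and 0 fell, against 1.97% and 0.219% of pericentric windows of all chromosomes. In arm windows 0 rose and 0 fell, against 0.124% and 0%. At an unadjusted p under 0.05 the counts were 3 pericentric windows higher and 11 lower, and 22 arm windows higher and 4 lower. The share over all chromosomes at that threshold was not counted, so these counts have no background beside them.

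The window that rose was the last of the chromosome, chr2L:23510001-23513712, which is cut short by the end of the assembly. It had 40.3 and 42.6 RPM in H3K9R, 39.5 and 39.9 RPM in H4K16R and 20.3 and 22.8 RPM in HWT (H4K16R minus HWT 0.85 ± 0.07, SE, adjusted p = 0.000688). H3K9R and H4K16R were at the same height there, and only HWT was lower. The call was lost without any one H4K16R or HWT library (adjusted p 0.00334 to 0.00749).

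The highest arm ratios of H4K16R to HWT were in the floor of the beat-III trough. In the 15 windows of that stretch under 10 RPM in HWT, a group formed after the values were seen, the median was 4.16 RPM in H3K9R, 5.93 RPM in H4K16R and 4.39 RPM in HWT. HWT entered both the choice of this group and the ratio, so these values are a description. At chr2L:17050001-17060000 the level was 6.37 and 5.49 RPM in H4K16R and 3.72 and 3.74 RPM in HWT (limma log2 difference 0.55 ± 0.08, SE, adjusted p = 0.00462). At chr2L:17030001-17040000 it was 11.1 and 9.46 RPM in H4K16R and 6.05 and 7.67 RPM in HWT (adjusted p = 0.0292). Neither passed the threshold of 0.001. No share over all chromosomes was counted at an adjusted p under 0.05. At that threshold, 5 arm windows were higher in H4K16R, all of them in this stretch. In H4K16R 1 arm window was lower, at chr2L:21890001-21900000 (38.8 and 39.0 RPM in H4K16R, 49.2 and 47.6 RPM in HWT). Among pericentric windows, the 1 lower window at that threshold was chr2L:22670001-22680000 in CG40006, with 31.2 and 32.5 RPM in H4K16R and 37.9 and 38.0 RPM in HWT.

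H3K9R and H4K16R were also compared with each other, with ratios that HWT does not enter. HWT did enter the choice of windows and the spread that limma estimated. Pericentric windows had a median log2 ratio of H3K9R to H4K16R of 0.68 (1.603-fold, 0.63 to 0.68 over the pairings). The exact permutation p of the library medians was 0.333. By limma, 54 of 89 rose and 0 fell, against 75.3% and 0.365% of pericentric windows of all chromosomes. Arm windows had a median log2 ratio of -0.32 (-0.33 to -0.30 over the pairings), and the exact permutation p of their library medians was 0.333. Of the 263 windows, 66 fell and 2 rose, against 19.8% and 2.23% of arm windows of all chromosomes. In a limma fit of only these 2 genotypes, 53 pericentric windows rose and 46 arm windows fell. The count of 66 was 23 without the shallower H3K9R library and up to 32 without any other library of the 2 genotypes.

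The gap between the pericentric and the arm class of 2L was wider in H3K9R libraries. The median log2 RPM of pericentric windows minus that of arm windows was 1.22 and 1.33 in H3K9R libraries, 0.30 and 0.31 in H4K16R libraries and 0.29 and 0.30 in HWT libraries. Between H3K9R and HWT the exact permutation p of these gaps, which do not depend on the scaling of a library, was 0.333. As a difference of median window ratios of H3K9R to HWT, the pericentric class was 1.01 above the arm class (0.95 to 1.02 over the pairings). Compared with the other chromosomes, the pericentric log2 ratio of H3K9R to HWT was lower on 2L, with a median of 0.72 on 2L and 1.25 elsewhere (difference -0.53, -0.59 to -0.52 over the pairings). The levels themselves were higher on 2L in every genotype. The library medians elsewhere were 40.7 and 40.1 RPM in H3K9R, 14.8 and 14.6 RPM in H4K16R and 14.6 and 14.1 RPM in HWT, against the 64.1 and 65.5 RPM in H3K9R and 37.9 and 38.0 RPM in HWT of 2L. The lower ratio thus stood beside a higher HWT level, and the part of that level in the difference was not tested. The median log2 RPM of pericentric windows on 2L minus that elsewhere was 0.65 and 0.71 in H3K9R libraries and 1.38 and 1.43 in HWT libraries (exact permutation p = 0.333). For arm windows the median ratios were -0.29 on 2L and -0.19 elsewhere (difference -0.09), and the gaps in level were -0.49 and -0.56 in H3K9R libraries and -0.52 and -0.50 in HWT libraries, which overlapped (exact permutation p = 1).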

How the data were processed

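Genomic DNA of salivary glands was sequenced in 6 libraries, 2 per genotype. Per the labels and the study's methods, the authors trimmed paired reads with Trimmomatic 0.36, aligned them to dm6 with Bowtie2 2.3.2, filtered them on mapping quality with SAMtools 1.6 and counted them with BEDTools in 10 kb windows. The deposited RPM values are reads scaled to the depth of a library, averaged by the authors over the replicates of a genotype, in windows of domains below full copy number in HWT (CNVnator). Sequence that occurs more than once can be lost or misplaced by that filter.

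Library totals and reads were derived from the averages. limma 3.58.1 (R 4.3.3) was fitted to log2(RPM + 1) of the 6 libraries over 2177 windows, 12 windows without a read being left out, with Benjamini-Hochberg adjustment over all windows and a threshold of 0.001. Exact permutation tests over libraries were two-sided. They compared the median log2 RPM of each library over a class of windows, or the gap between such medians. The median window ratios were not tested by them. In 6 simulated libraries, all built on HWT levels with an assumed spread, 200 of 2176 windows were raised or lowered 1.5-fold in H3K9R. Of these, 158 were recovered, and 1 unchanged window was called. A far larger share of windows was called in the data themselves, so these figures do not give the error rates there. Once-only 100-base sequences, genes and transposons came from RefSeq Release 6 and Ensembl annotation of the same coordinates. Python 3.11.15 was used.

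The windows, stretches and gene lists were chosen with earlier results of these data known. Named windows were the 5 highest and 5 lowest H3K9R ratios and the 3 highest and 3 lowest H4K16R ratios per class, the histone windows and the first and last window. Named genes were the up to 3 with most overlap per stretch and list members. Other single windows in the text (lowest or highest levels, spikes, windows of the Snail family genes) and groups defined by level or by shared sequence were chosen after the values were seen. Nothing in the labels says whether the replicates came from separate crosses, so p-values measure the spread between these libraries.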

Additional observations from a re-analysis of the deposited data

How the results depend on the processing

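All 9 median differences kept their direction under every alternative tried for them. Those of H4K16R from HWT were small (-0.02 in pericentric and 0.01 in arm windows), and the library medians of these genotypes overlapped. No direction is claimed for them. Counts of called windows moved more, and the cause was not tested where the alternative does not show it. Shares over all chromosomes were counted for the main setting only. Against HWT, the 53 of 89 pericentric windows higher in H3K9R were 27 with a ratio of averages of at least 2. Among the 21 pericentric windows with at least 80% once-only sequence, 17 were higher. No pericentric window was lower, against 1 with a variance trend and 1 at an adjusted p under 0.05. The 3 arm windows higher were 5 with the trend, 5 after scaling to high arm windows, 6 at 0.05, 1 by the ratio and 0 in once-only sequence. The 69 lower were 116 with the trend, 26 after scaling, 170 at 0.05, 0 by the ratio and 22 to 29 without 1 library. For H4K16R against HWT, the 1 pericentric window higher was 0 with log2(RPM + 0.1), in a fit of only these genotypes, by the ratio, in once-only sequence and without any 1 library of these genotypes, and at 0.05 there was 1 pericentric window lower, with 5 arm windows higher and 1 lower. For H3K9R against H4K16R, the 54 of 89 pericentric windows higher were 30 by the ratio, and 3 were lower at 0.05. Of the 21 pericentric windows in once-only sequence, 17 were higher. The 2 arm windows higher were 4 with the trend, 7 at 0.05, 1 by the ratio and 0 in once-only sequence. The 66 lower were 42 with log2(RPM + 0.1), 115 with the trend, 29 after scaling, 188 at 0.05, 1 by the ratio and 23 to 32 without 1 library. Scaling turned the limma log2 difference of H3K9R from HWT above 0 in 3 windows that had not passed the test, to 0.00036 at chr2L:22850001-22860000, 0.020 at chr2L:22790001-22800000 and 0.029 at chr2L:22780001-22790000. Where 1 library was left out, the lone library was assumed to vary like the others. The counts in once-only sequence and without histone windows, and the arm median without the transposon stretch, were chosen after seeing the data. No paired analysis was possible because the averages do not show which derived library carries which replicate number.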
